A study of Mus musculus with 10 samples.

Results

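In stromal cells of the mesenteric lymph node (mLN), the 17 regions that the study called as differentially methylated between specific pathogen-free (SPF) and germ-free (GF) mice were followed CpG by CpG in the unsmoothed methylation values of every library. A differentially methylated region (DMR) is a run of neighbouring CpGs whose methylation differs between groups. All 17 DMRs of the deposited table for SPF against GF in mLN were taken, out of 2132 DMRs in 4 deposited tables. The other DMRs, merged where they overlapped by at least 1 bp into 1585 regions without any of the 17, served as a measure of how far mLN libraries differed in general. Most of these were called between mLN and skin-draining peripheral nodes (pLN), in SPF mice (806 DMRs) or in GF mice (1293 DMRs), and 16 between SPF and GF mice in pLN.

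Whole-genome bisulfite sequencing was run on 10 libraries of Pdpn+ non-endothelial stromal cells, sorted without CD45+ blood cells and CD31+ endothelial cells from BALB/c mice. There were 3 mLN libraries of SPF mice and 2 of GF mice, and as many of pLN. The SPF mice were 7 to 12 weeks old and the GF mice 6 to 10 weeks old. The labels name no treatment or altered allele in either group. The only BALB/c line that the methods of the study list under SPF housing is CD90.1 (BALB/c), and the labels do not say whether the SPF libraries came from it, so a congenic difference from the GF mice cannot be told apart from housing either. The GF colony was founded by caesarean section in Hannover and its mice lived in isolators there or in Braunschweig, where the SPF mice were kept, so housing, colony and facility cannot be told apart. Of the mLN and of the pLN GF libraries, 1 each had been left out by the authors as an outlier and was not used here. The sorted population holds several stromal subsets, so a shift in methylation within cells and a shift in the mixture of subsets cannot be told apart. For bulk sequencing, the reporting summary of the study gives at least 2 replicates from independent experiments. Nothing in the labels says whether the libraries came from separate mice, so the spread between them may be partly technical.

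Stromal cells form the scaffold of the lymph node and guide lymphocytes with chemokines and survival factors, and the mLN drains the gut, where the microbiota resides. DNA methylation at CpGs is copied when cells divide, is low at most active promoters and CpG islands, and can keep a record of earlier signals. At imprinted genes a single parental copy is methylated, which leaves an intermediate level in the cell population.

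The DMRs were short and lay close to promoters. Their length ran from 31 to 804 bp with a median of 203 bp, and they held 206 CpGs in all, 87 of them in Grb10 alone. At most 5 CpGs were measured in 11 of the 17. By the distances in the deposited tables, 12 of the 17 (70.6%) lay within 2000 bp of a transcription start site, as did 11 of the 16 pLN housing DMRs (68.8%), against 18.5% of the mLN against pLN DMRs of SPF mice and 19.3% of those of GF mice. The density of CpGs was 3.75 per 100 bp in the median DMR and 2.11 in the median other region. Among regions of at most 5 CpGs the medians were closer, at 2.41 in 11 DMRs and 2.16 in 377 other regions.

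In the genome sequence, 5 of the 17 DMRs (29.4%) were mostly soft-masked, meaning that RefSeq marks most of their bases as repeats or low-complexity sequence. The same held for 2.59% of the 1585 other regions. Among regions of at most 5 CpGs the shares were 45.5% of 11 DMRs and 6.37% of 377 other regions. The sequences below are from RefSeq GRCm38.p6, forward strand, with the measured CpGs in capitals. The first 4 lines show Wt1, Zxdb and Ptgdr, whose single CpGs are described in turn, and the stretch of Blcap that spans both of its longest runs of CpGs at which the mLN groups did not overlap. The last 4 lines are the soft-masked DMRs of at most 81 bases.
Wt1, chr2:105132426-105132673: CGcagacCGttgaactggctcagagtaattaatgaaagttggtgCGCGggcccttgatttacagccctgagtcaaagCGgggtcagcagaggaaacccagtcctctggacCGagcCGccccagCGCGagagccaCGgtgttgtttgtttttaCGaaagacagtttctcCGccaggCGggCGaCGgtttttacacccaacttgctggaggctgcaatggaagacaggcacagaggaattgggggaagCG
Zxdb, chrX:94725438-94725518: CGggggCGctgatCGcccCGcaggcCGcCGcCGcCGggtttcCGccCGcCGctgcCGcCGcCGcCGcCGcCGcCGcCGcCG
Blcap, 11 CpGs, chr2:157559362-157559610: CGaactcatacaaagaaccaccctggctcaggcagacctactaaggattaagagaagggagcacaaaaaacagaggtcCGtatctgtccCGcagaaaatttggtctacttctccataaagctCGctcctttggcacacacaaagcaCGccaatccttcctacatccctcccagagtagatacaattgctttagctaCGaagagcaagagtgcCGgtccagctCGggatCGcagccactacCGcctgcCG
Ptgdr, chr14:44860227-44860393: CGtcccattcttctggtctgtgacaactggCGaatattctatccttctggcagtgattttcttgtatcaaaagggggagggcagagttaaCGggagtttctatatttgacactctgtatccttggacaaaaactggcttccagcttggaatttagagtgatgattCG
Snd1, chr6:28928172-28928203: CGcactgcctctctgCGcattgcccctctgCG
Sae1, chr7:16388382-16388462: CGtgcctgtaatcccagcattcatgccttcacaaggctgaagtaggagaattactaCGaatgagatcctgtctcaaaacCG
Unc93b1, chr19:3934803-3934844: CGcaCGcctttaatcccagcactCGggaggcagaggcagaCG
Slc24a3, chr2:145122709-145122745: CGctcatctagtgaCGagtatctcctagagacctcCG

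The 17 DMRs had been called on these libraries and this contrast, so their own SPF minus GF values are a description, and no test of them is given. In the unsmoothed values 13 of the 17 kept the direction of the table. In 10 of the 17 the SPF and GF libraries did not overlap and stood in the listed direction, and in a further 1, Pltp, they stood apart the other way. Over all 1602 regions, groups that do not overlap in either direction made up 21.5%, but the call itself had used this contrast and nothing is read from the difference. The table listed 13 DMRs as higher and 4 as lower in SPF mice; 9 of the 13 stood apart as higher, beside 12.7% of all regions, and 1 of the 4 as lower, beside 8.86%. A difference of at least 25 percentage points, the limit the authors set on smoothed means, was reached by 4 of the 17 in the unsmoothed values (Snd1, Blcap, Wt1 and Grb10) and by 0.562% of all regions. The plot of the 17 DMRs by library shows these values for both nodes.

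**Figure D1:**
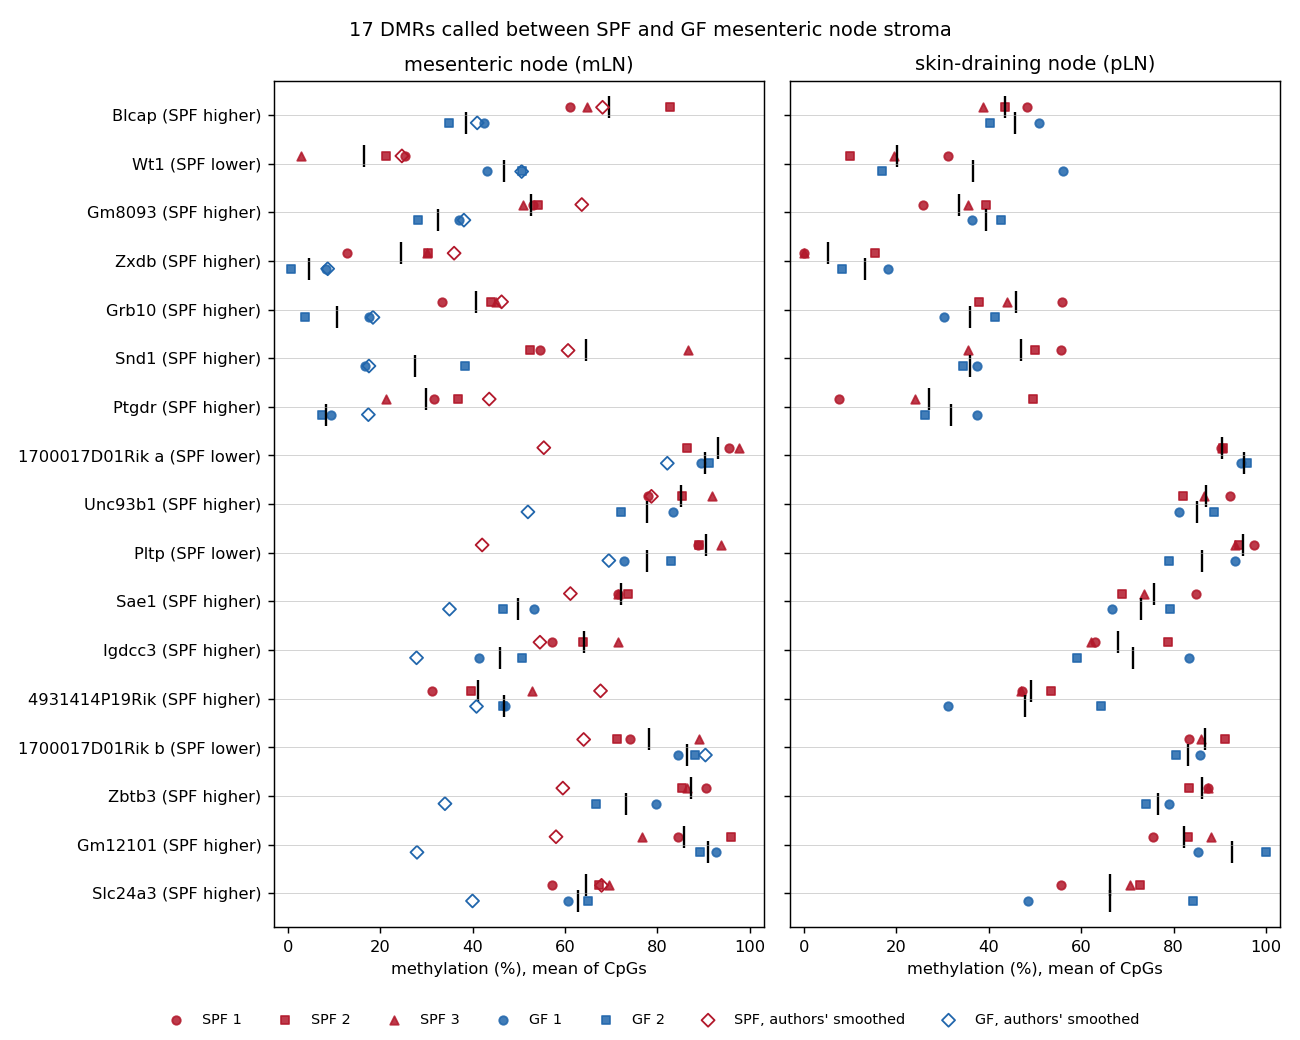
Methylation in percent (x axis, mean over the CpGs of each DMR) for the 17 DMRs in the 5 mLN libraries (left) and the 5 pLN libraries (right); red is SPF, blue is GF, marker shape is the replicate number, black bars are group means and open diamonds are the authors' smoothed mLN group means. Labels a and b mark the 1700017D01Rik DMRs of 233 and 669 bp. The mLN groups stand apart from Blcap to Ptgdr, at Sae1, Igdcc3 and Zbtb3, and the opposite way at Pltp. In the lower part the diamonds lie far from the bars at several DMRs with few CpGs.

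Both DMRs at imprinted loci were higher in SPF mice in every library. Blcap encodes a small membrane protein, and its gene hosts the imprinted gene Nnat, which lay within 5 kb of the DMR. The DMR (chr2:157559186-157559825, 24 CpGs) lay in an intron of the protein-coding Blcap transcripts and overlapped an exon of a non-coding one. Its methylation was 61.1%, 82.6% and 64.8% in the SPF libraries and 42.5% and 34.8% in the GF libraries. The SPF mean of 69.5% ± 11.5 (SD, n = 3) exceeded the GF mean of 38.6% ± 5.42 (SD, n = 2) by 30.9 points. In pLN the 5 libraries lay between 38.8% and 50.9%, so it was the SPF mLN libraries that stood apart from all 7 others.

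Within the Blcap DMR, 23 of 24 CpGs had the listed sign and 10 had groups that did not overlap. These 10 formed 2 runs of 5, at each end of the sequence printed above, with 1 CpG between them. Over the first run (157559362 to 157559508) the SPF libraries had 72.4%, 95% and 55.2% and the GF libraries 33.0% and 46.3%, while pLN libraries ranged from 26.5% to 60.1%. Over the second run (157559574 to 157559609) the SPF libraries had 66%, 100% and 68.3% and the GF libraries 15% and 11.5%, while pLN libraries ranged from 17.9% to 36.7%. Single CpGs of the second run differed by 57.2 to 75.3 points, more than any CpG of the first run, whose differences were 20.5 to 48.5 points. SPF replicate 2 was fully methylated at 10 of the 24 CpGs, SPF replicates 1 and 3 at 4 and 2, and GF replicates 1 and 2 at 2 and 0.

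Grb10 encodes an adaptor that binds the insulin receptor and restrains growth, and it is imprinted. Its DMR (chr11:12026129-12026932, 87 CpGs, of which the authors counted 8 in their call) covered a transcription start site and overlapped an untranslated part of an exon. The SPF libraries had 33.3%, 44.0% and 45.1% and the GF libraries 17.7% and 3.67%. All SPF libraries were higher than both GF libraries, by 30.1 points between the means (40.8% ± 6.54, SD, n = 3, against 10.7% ± 9.89, SD, n = 2).

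At Grb10 the GF mLN libraries were the ones that stood apart. The 5 pLN libraries had 30.4% to 55.9%, and GF pLN libraries, at 30.4% and 41.4%, were above both GF mLN libraries. GF replicate 2 of mLN had no methylation at 73 of the 87 CpGs and GF replicate 1 at 53, against 9, 17 and 15 in the SPF mLN libraries. Of the pLN libraries the highest number at 0 was 28, in GF replicate 1. A run of 10 CpGs over 40 bp (chr11:12026439-12026478) was at 0 in both GF mLN libraries and at 14.3%, 50% and 47.2% in the SPF mLN libraries. Neighbouring CpGs are read on the same molecules, so such runs are not independent measurements. The study restricted CpGs by coverage and counted 8 of the 87 in its call. Read numbers are not in the values used here, so a value of 0 may rest on few reads. Over all 87 CpGs, 86 had the listed sign and 27 had groups that did not overlap.

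Of 49 imprinted genes in a fixed list, Blcap and Grb10 were the nearest gene of 1 region each and no other gene on the list was the nearest gene of any of the 1602 regions. The deposited CpG table covers DMRs alone, so the methylation of the other imprinted genes was not analysed here.

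**Figure D2:**
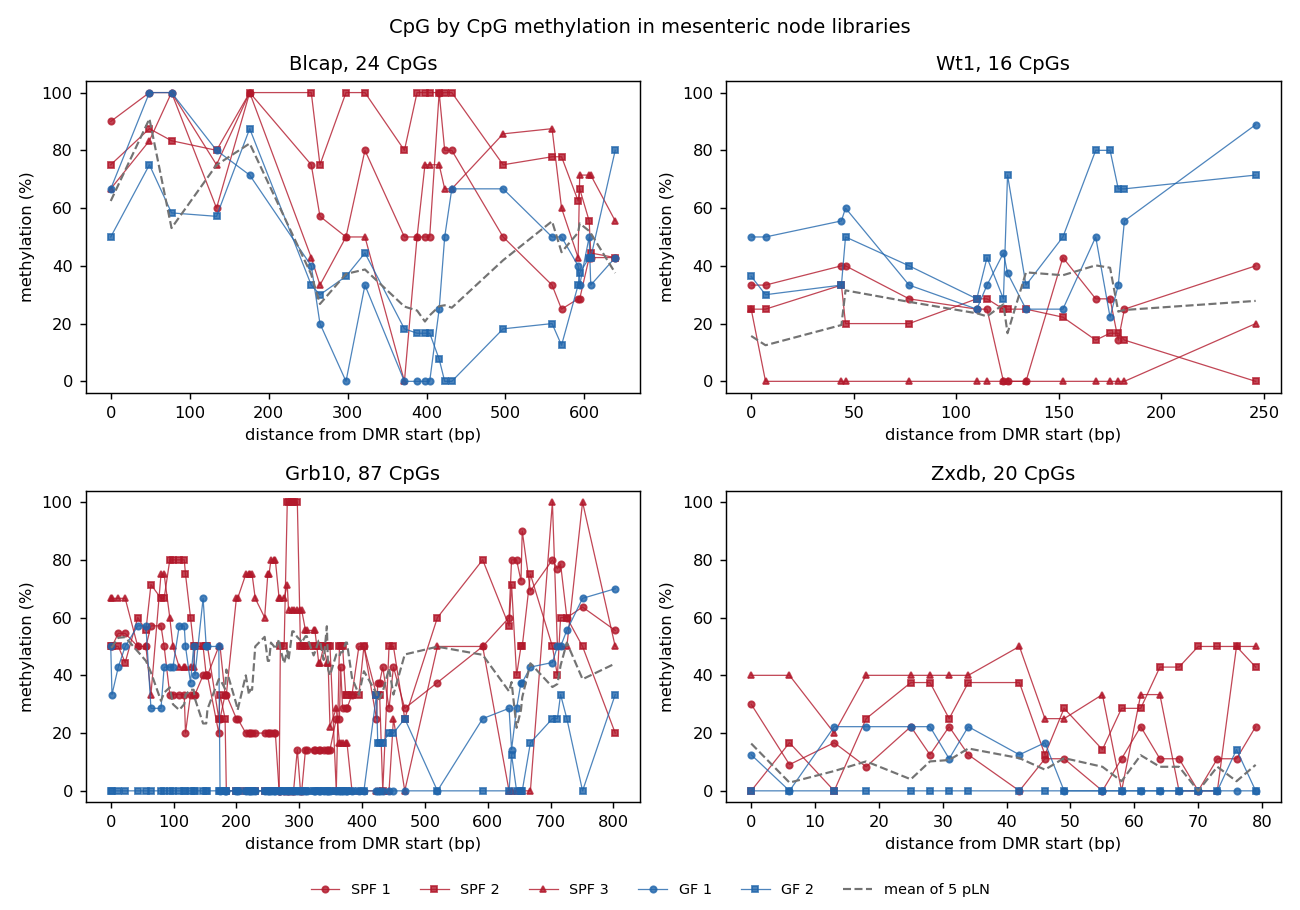
Methylation in percent of each CpG (y axis) against its distance in bp from the start of the DMR (x axis) in the 5 mLN libraries (red SPF, blue GF, marker shape by replicate) with the mean of the 5 pLN libraries as a dashed line. At Wt1 the SPF 3 library is at 0 at 14 of 16 CpGs, at Grb10 both GF libraries are at 0 over long stretches, and at Zxdb GF 2 is at 0 at 19 of 20 CpGs.

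Wt1 was the DMR listed as lower in SPF mice whose values stood apart that way. It encodes a zinc finger transcription factor of mesothelium, gonad and kidney that is also used by stromal progenitors. The DMR (chr2:105132426-105132672, 16 CpGs) lay 1543 bp from a start site, in an intron of the coding transcripts and in an exon of a retained-intron transcript. The SPF libraries had 25.3%, 21.2% and 2.81% and the GF libraries 43.1% and 50.6%, which gave a difference of -30.4 points (16.4% ± 12, SD, n = 3, against 46.8% ± 5.31, SD, n = 2). All 16 CpGs had the listed sign and 10 had groups that did not overlap. SPF replicate 3 had no methylation at 14 of 16 CpGs, while neither GF library had a CpG at 0. Without SPF replicate 3 the difference was -23.6 points. In pLN the same DMR spread from 9.85% to 56.1%, and the GF libraries themselves had 56.1% and 17%, so both mLN group means lay inside the pLN range, with SPF replicate 3 of mLN below it.

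Around Wt1 there were 9 further regions within 100 kb, all called between mLN and pLN in SPF or GF mice. All had more methylation in mLN than in pLN on average, by 11.1 to 50.1 points, and a difference between the nodes was the ground of the call. The SPF minus GF differences of these 9 regions in mLN had a median of -0.85 points. The groups stood apart in 2 of the 9, beside 21.5% of all regions, so the count is near the general share. The nearest region, 324 bp downstream (38 CpGs), had 66.8%, 58.0% and 65.3% in SPF and 76.7% and 67.7% in GF mLN, a difference of -8.81 points. The other was a region of 3 CpGs, 8979 bp upstream (chr2:105123409-105123447), assigned to Gm27636. It had 53.4%, 24.1% and 48.9% in SPF and 89.7% and 77.3% in GF mLN, and between 5.13% and 30% in pLN, where both GF libraries were again the higher. Its difference of -41.4 points was the most negative of all regions; it had been called between mLN and pLN of GF mice, a comparison that used the same GF mLN libraries, and limma gave an unadjusted p of 0.00126 and an adjusted p of 0.379.

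**Figure D3:**
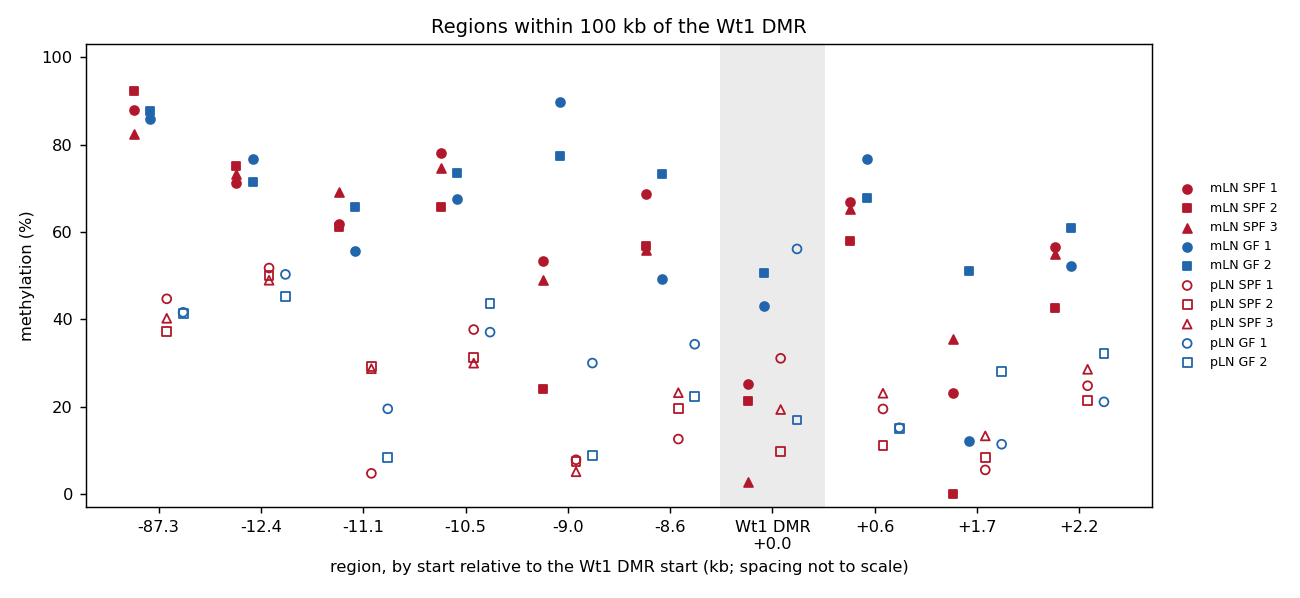
Methylation in percent (y axis) of the Wt1 DMR (grey band) and the 9 other regions within 100 kb, placed by the distance of their start from the start of the DMR in kb (x axis, spacing not to scale). Filled markers are mLN and open markers pLN libraries, red SPF and blue GF; mLN groups stand apart at the DMR, at the region of 3 CpGs about 9 kb upstream and narrowly at the region just downstream.

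Zxdb, an X-linked zinc finger gene, held the densest DMR, with 20 CpGs in 80 bp of coding sequence built largely of cCG repeats, as the printed sequence shows. Its mLN libraries had 12.8%, 30.4% and 30.0% in SPF and 8.19% and 0.714% in GF mice, a difference of 19.9 points. All 20 CpGs had the listed sign but groups stood apart at 6 of them. The pLN libraries lay between 0% and 18.2%, with SPF replicates 1 and 3 at 0 at all 20 CpGs. The DMR overlapped one called between mLN and pLN of SPF mice. The methods of the study state female mice as the default and sex-matched mice in all experiments. Its reporting summary names both sexes, and its figure legends name males for a knockout experiment not used here. The sex behind each library is not given in the labels. Over the 5 other regions on the X chromosome the mean was 40.6%, 61.7% and 54.5% in SPF mLN and 50.2% and 45.7% in GF mLN libraries. The part of sex in the Zxdb values was not tested.

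Gm8093, a transcribed pseudogene, held a DMR of 13 CpGs at its start site (chr9:78427675-78427978), and Cgas, the sensor of cytosolic DNA, and Ddx43 lay within 5 kb. The SPF libraries had 53.1%, 54.1% and 50.9% and the GF libraries 37.1% and 28.1%. As at Blcap, the SPF mLN libraries were above all others, since the 5 pLN libraries had 25.8% to 42.6%. The difference was 20.1 points, with 10 of 13 CpGs in the listed sign and 5 with groups that did not overlap.

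The other DMRs that stood apart in the listed direction held 3 or 4 CpGs. Snd1 encodes a nuclease-domain protein of RNA metabolism. At its intronic DMR (chr6:28928172-28928202, 3 CpGs), the SPF libraries had 54.6%, 52.4% and 86.7% and the GF libraries 16.7% and 38.3%, the difference of 37.1 points being the highest among the 17. SPF replicate 3 raised it, and without that library it was 26 points. The pLN libraries, at 34.3% to 55.6%, overlapped both mLN groups.

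Ptgdr encodes a receptor for prostaglandin D2, and its DMR lay 851 bp from the start site. It had 31.7%, 36.8% and 21.3% in the SPF and 9.38% and 7.27% in the GF libraries. The groups did not overlap and their means differed by 21.6 points, yet pLN libraries spread from 7.67% to 49.7%. The second of its 4 CpGs was at 60%, 41.7% and 20% in SPF mLN and at 0 in both GF mLN libraries.

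Sae1 encodes a subunit of the SUMO-activating enzyme. Its DMR, 584 bp from the start site, had 71.4%, 73.6% and 71.4% in the SPF and 53.2% and 46.5% in the GF libraries. The SPF libraries were closely spaced (72.2% ± 1.27, SD, n = 3), and pLN libraries, at 66.6% to 84.8%, lay with them, so the GF mLN libraries were below all 8 others. Igdcc3, an immunoglobulin-superfamily gene, showed the same order. It had 57.1%, 63.9% and 71.4% in SPF, 41.3% and 50.7% in GF mLN and 59.1% to 83.3% in pLN libraries. Its DMR overlapped one called between mLN and pLN of GF mice.

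Zbtb3, a zinc finger gene, had the smallest difference among the DMRs that stood apart in the listed direction, 14.2 points. The SPF libraries had 90.5%, 85.2% and 86.3% and the GF libraries 79.7% and 66.7%. None of its 3 CpGs had groups that did not overlap. Without GF replicate 2 the difference was 7.61 points and without GF replicate 1 it was 20.7 points, so GF replicate 2 set much of its size.

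At the remaining 7 DMRs the unsmoothed values did not stand apart in the listed direction. Pltp, which encodes the phospholipid transfer protein, was listed as lower in SPF mice but had 88.8%, 89.1% and 93.8% in the SPF and 72.8% and 82.8% in the GF libraries, a difference of 12.7 points upward. Without GF replicate 1 it was 7.70 points. The authors' smoothed mean for SPF was 42.0%. At Gm12101, listed as higher in SPF, the SPF libraries had 84.3%, 95.8% and 76.7% and the GF libraries 92.7% and 89.2%, with the authors' smoothed mean for GF at 27.9%.

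At 4931414P19Rik, also listed as higher in SPF, the SPF libraries had 31.3%, 39.6% and 52.9% around GF values of 47.0% and 46.6%. Of the DMRs within 1700017D01Rik, both listed as lower in SPF, that of 233 bp had 95.6%, 86.3% and 97.6% in SPF and 89.4% and 91.1% in GF. The other, of 669 bp, had 74.0%, 71.3% and 89.0% in SPF and 84.5% and 88.2% in GF. In these DMRs the SPF libraries reached to both sides of the GF libraries.

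Unc93b1 encodes the chaperone that carries nucleic acid-sensing Toll-like receptors to endosomes, and its DMR lay 341 bp from the start site. The SPF libraries had 78.0%, 85.2% and 91.9% and the GF libraries 83.3% and 72.0%, which overlapped. Slc24a3, a sodium/calcium exchanger gene, had 57.1%, 67.3% and 69.4% in SPF and 60.7% and 65% in GF, a difference of 1.76 points. Both sequences are printed above; all of their bases are soft-masked.

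The authors' smoothed group mean and the unsmoothed mean of the same libraries differed by more than 20 points, in SPF or in GF, at 7 of the 17 DMRs. These were Pltp, Gm12101, Zbtb3, 4931414P19Rik, Unc93b1, Slc24a3 and the 1700017D01Rik DMR of 233 bp, each with 3 to 6 CpGs. At Blcap the larger of the 2 gaps was 2.33 points, at Grb10 7.75 points and at Wt1 8.23 points. Groups stood apart in the listed direction at 5 of the 6 DMRs with more than 5 CpGs and at 5 of the 11 with 5 or fewer.

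By CpG, 184 of the 206 had the listed sign, 21 the other and 1 was equal. Groups did not overlap in the listed direction at 67 (32.5%) and in the other direction at 5. Over the 24000 CpGs with a value in all 5 mLN libraries, 16% had groups that did not overlap, 8.88% with SPF higher and 7.15% with SPF lower. Without the many CpGs of Grb10, 40 of 119 stood apart in the listed direction. The DMRs had been called on this contrast, so nothing is read from their higher share.

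The spread between mLN libraries over the 1585 other regions set the scale for these values. The mean absolute difference between a pair of libraries was 7.43 to 8.51 points within SPF, 7.16 within GF and 7.24 to 9.09 between SPF and GF. The range between housings was thus close to the ranges within them over these regions. Over the 17 DMRs the same measure was 7.42 to 11.5 within SPF, 7.86 within GF and 14.3 to 21.2 between the groups. The 17 DMRs had been called on this contrast and the other regions on others, so nothing is read from how far the DMRs exceed them. The median absolute SPF minus GF difference was 18.1 points in the 17 DMRs and 4.13 points in the other regions, of which 5 (0.315%) reached 25 points. Restricted to regions of at most 5 CpGs, the other regions had a median of 5.50 points, and 4 of 377 reached 25. The plot of the difference against region size shows that the spread of the other regions was widest where CpGs were few.

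**Figure D4:**
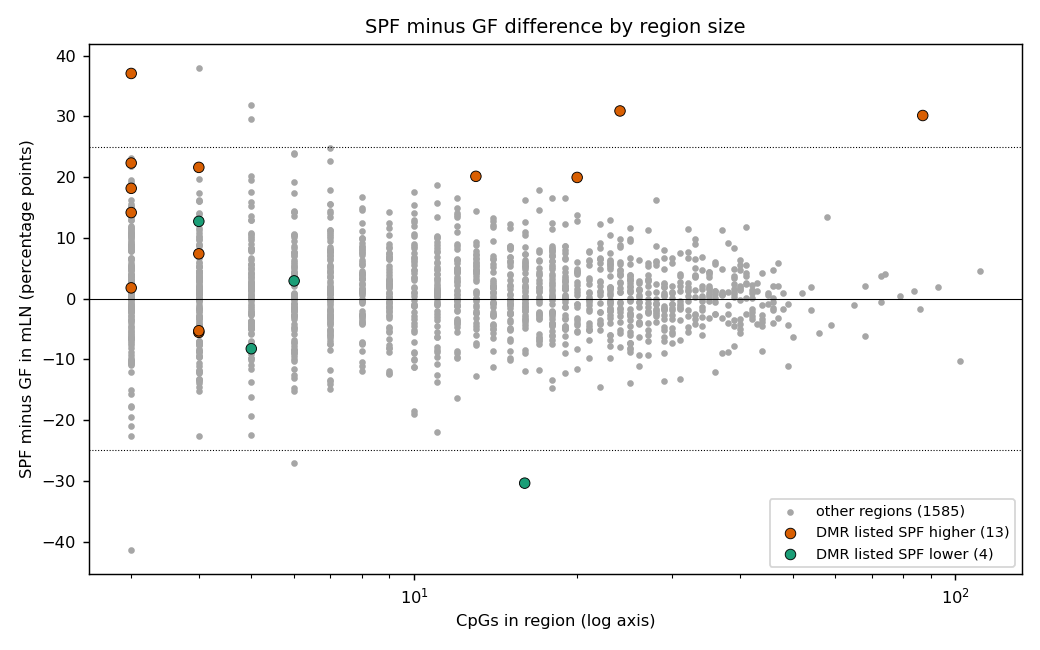
SPF minus GF in mLN in percentage points (y axis) against the number of CpGs in the region (x axis, log scale) for the 1585 other regions (grey) and the 17 DMRs (orange listed as higher in SPF, green as lower); dotted lines mark 25 points. Blcap, Grb10 and Wt1 lie beyond the dotted lines at 24, 87 and 16 CpGs, where the grey points stay inside them. The 17 DMRs had been called on this contrast and the grey regions on others, so nothing is read from that.

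The mean level over the other regions was 51.1%, 53.1% and 52.4% in the SPF and 50.8% and 51.7% in the GF libraries. The groups overlapped, and the difference of 0.932 points gave p = 0.4 by exact permutation of the housing labels (two-sided, 10 arrangements, smallest possible p 0.1).

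Tested region by region with limma, SPF and GF mLN libraries gave 0 of 1602 regions at an adjusted p under 0.05 (0.0%). At an unadjusted p under 0.05 there were 107 regions (6.68%), 74 higher and 33 lower in SPF. These counts include the 17 DMRs, whose p-values carry their choice on this contrast and are not given. The smallest adjusted p was 0.379 in limma. By single CpGs, limma called 0 of 24000 (0.0%), with 1583 (6.60%) at an unadjusted p under 0.05. The 5 libraries bound the precision of these tests, and the number of reads behind each fraction is not in the values used here.

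The pLN libraries had no part in choosing the 17 DMRs. There limma called 0 of 1602 regions between SPF and GF (0.0%), with 94 (5.87%) at an unadjusted p under 0.05 and 0 of the 17 among these. In pLN the groups stood apart at 2 of the 17, beside 24.8% of all regions, 8.99% with SPF higher and 15.8% with SPF lower. Zbtb3 had 87.5%, 83.3% and 87.5% in SPF and 79.0% and 74.1% in GF pLN, a difference of 9.55 points (limma, adjusted p = 0.724). The 1700017D01Rik DMR of 233 bp had 90.2%, 90.6% and 90.6% in SPF and 94.5% and 95.8% in GF pLN, a difference of -4.70 points (limma, adjusted p = 0.782). Both pLN differences had the direction listed for mLN. In the unsmoothed mLN values, Zbtb3 went the same way (14.2 points), but the 1700017D01Rik DMR of 233 bp went the other way (2.91 points).

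At the DMRs with the most CpGs the pLN differences were smaller than their mLN counterparts. SPF minus GF in pLN was -2.08 points at Blcap (standard error 5.03, limma adjusted p = 0.931), beside 30.9 points in mLN. It was -16.4 points at Wt1 (standard error 11.3, limma adjusted p = 0.768), beside -30.4 points in mLN. At Grb10 it was 10 points (standard error 6.34, limma adjusted p = 0.740), beside 30.1 points in mLN. Zxdb had -8.02 points in pLN (standard error 6.15, limma adjusted p = 0.779) and 19.9 points in mLN. The difference between the nodes was not tested, since the mLN value had been used to choose the DMRs.

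Seen from mLN, the 16 DMRs called between SPF and GF pLN held 5 with groups that did not overlap. Fam63a had 0%, 1.32% and 8.69% in SPF and 8.75% and 22.3% in GF mLN, a difference of -12.2 points in the direction listed for pLN, and the groups were 0.055 points apart. Without GF replicate 2 the difference was -5.41 points and without GF replicate 1 -18.9 points. Its DMR of 36 CpGs covered a start site. Stim2, a sensor of calcium stores, had 82.2%, 66.7% and 75.3% in SPF and 55.7% and 65.5% in GF mLN, a difference of 14.1 points, or 9.21 points without GF replicate 1. Mib1, a ubiquitin ligase of Notch signalling, had 76.3%, 60.8% and 61.4% in SPF and 58.8% and 55% in GF mLN, a difference of 9.26 points, or 4.21 points without SPF replicate 1. Both had the direction listed for pLN.

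The other members of this group went against their pLN listing. Tex24 was low throughout, at 12.7%, 12% and 9.51% in SPF and 2.08% and 5.16% in GF mLN. The lincRNA 1700110I01Rik had 56.7%, 59.1% and 58.0% in SPF and 33.4% and 43.5% in GF mLN, and 69.9%, 69.4% and 54.9% in SPF and 90.0% and 86.0% in GF pLN. SPF libraries were thus the higher in mLN and the lower in pLN. Beside the 5 of 16, 21.5% of all regions had mLN groups that did not overlap.

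Among the other regions with at least 5 CpGs, the 10 with the most extreme limma statistics, 5 in each direction, had all been called between mLN and pLN of GF mice, and 1700110I01Rik also between SPF and GF pLN. Such a call used the GF mLN libraries and favours regions in which these lie far from pLN. Over all DMRs of that table the mean SPF minus GF difference in mLN was 4.07 points where mLN was the lower node and -2.61 points where it was the higher one, and in the table of SPF mice 0.681 and 0.239 points.

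Of the regions higher in SPF mLN, Kansl1 (5 CpGs) had 52.3% ± 4.77 (SD, n = 3) against 22.8% ± 8.22 (SD, n = 2), and Zdhhc25 (5 CpGs) had 57% ± 11.6 against 25.1% ± 7.07. The region assigned to 0610038B21Rik (11 CpGs) lay in an intron of Arhgap10 and had 26.8% ± 3.07 against 8.09% ± 0.167. 1700034G24Rik (10 CpGs) had 33.2% ± 3.87 against 15.6% ± 2.69. None of these passed the adjusted threshold in limma.

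Of the regions lower in SPF mLN, the region at Isl1, a homeobox gene of neural and cardiac progenitors, had 47.0% ± 6.57 against 69.5% ± 6.41. Rpl15, a ribosomal protein gene, was the nearest gene of a region with 46.7% ± 10.1 against 73.7% ± 9.02. Arhgef16 had 68.3% ± 3.89 against 87.6% ± 3.34, Sez6l 49.7% ± 4.21 against 68.3% ± 7.83 and Bend3 39.2% ± 8.71 against 58.2% ± 3.13. These are likewise descriptions of the top of the ranking.

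**Figure D5:**
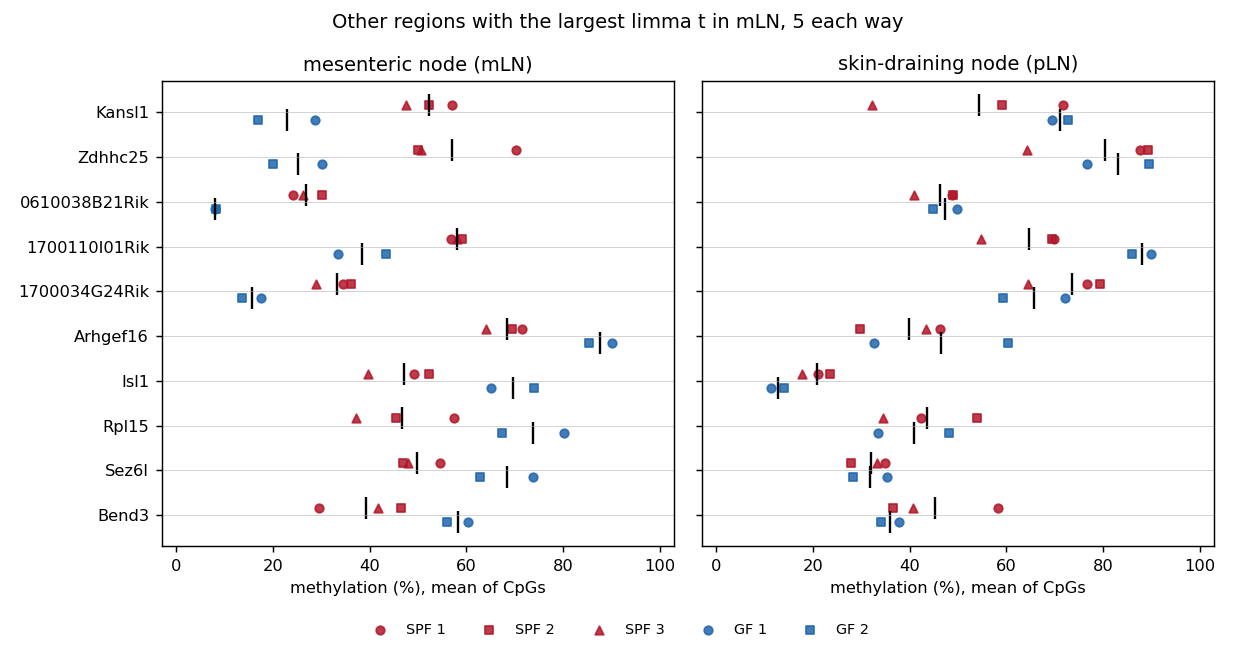
Methylation in percent (x axis) of the 10 other regions of at least 5 CpGs with the largest limma statistic for SPF against GF in mLN, 5 higher in SPF (top) and 5 lower (bottom), in mLN (left) and pLN (right). Red is SPF, blue GF, marker shape the replicate, black bars are group means; mLN groups stand apart in all 10, and at 1700110I01Rik and Isl1 the pLN groups stand apart in the opposite order.

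Few regions had a gene that senses microbes as their nearest gene. Of 50 genes of microbial sensing and interferon signalling, 3 were the nearest gene of a region, with 1 region each. Unc93b1 is described above, and of the 2 others limma called 0, with 0 at an unadjusted p under 0.05. Nfkb1, a subunit of the NF-kB transcription factor, had 48.7%, 29.3% and 46.5% in SPF and 39.3% and 44.8% in GF mLN, a difference of -0.54 points. Nod2, the sensor of muramyl dipeptide, had 54.3%, 58.4% and 52.0% in SPF and 48.4% and 62.2% in GF mLN, a difference of -0.37 points. Genes other than the nearest were not counted, such as Cgas, which is on the list and lay within 5 kb of the Gm8093 DMR.

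Of 48 genes of stromal function, 9 were the nearest gene of 20 regions, with a median difference of -1.85 points beside 0.901 points over all regions. The Ptgdr and Wt1 DMRs are among the 20 and are described above. Of the 18 others limma called 0, and at an unadjusted p under 0.05 1 was higher and 1 lower, beside 6.68% of all regions. These were Tnfsf11 and Ptgis. At its region of 17 CpGs, Tnfsf11, the cytokine RANKL, had 56.6%, 71.4% and 70.6% in SPF and 42.8% and 53.8% in GF mLN (17.9 points, limma adjusted p = 0.578). Another Tnfsf11 region, of 3 CpGs, went the other way, also without overlap of the groups. It had 44.3%, 38.4% and 50.5% in SPF and 52.4% and 51.8% in GF mLN (-7.69 points, limma adjusted p = 0.820). Ptgis, the prostacyclin synthase, had 48.2%, 26.7% and 34.5% in SPF and 65% and 52% in GF mLN (-22 points, limma adjusted p = 0.549).

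Markers of other cells that a sort could hold were rarely near a region. No region had a haematopoietic (0 of 6 genes) or perivascular (0 of 6) marker as its nearest gene. Of 7 endothelial markers Kdr had 1 region, at 2.27 points. Of 5 mesothelial markers Wt1 and Lrrn4 had 5 regions, and 1 of these was the Wt1 DMR (-30.4 points), called on this contrast. The 4 others lay between -12.1 and -4.58 points. Their groups stood apart in 1 of the 4, beside 21.5% of all regions. Apart from the Lrrn4 region, all lay at the Wt1 locus. Lrrn4 had 31.4%, 29.8% and 22% in SPF and 29.3% and 35.4% in GF mLN, which overlapped. The part of mesothelial cells in the Wt1 values was not tested.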

How the data were processed

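Per the labels and the methods of the study, the authors trimmed the reads, aligned them with BSMAP to GRCm38, removed duplicates, restricted CpGs by coverage, smoothed methylation with bsseq and called DMRs between pairs of groups. The submitters' processing notes name BSMAP 2.4.3, FastQC 0.11.1 and cutadapt 1.4. The deposited CpG table holds, per CpG and library, an unsmoothed fraction of methylated reads between 0 and 1, and the deposited DMR tables give smoothed group means, printed here as the authors' means. The columns of the authors' own differences and scores were not used, other than the smoothed difference in 1 alternative. Smoothing borrows from neighbouring CpGs outside a DMR, so smoothed and unsmoothed means can differ.

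For each DMR and library the mean fraction of its CpGs was taken as a percent; DMRs sharing 1 bp or more were joined, which gave 1602 regions. The 24182 CpGs all fell on CG in GRCm38.p6. Groups came from the sample titles. Regions and CpGs were compared by limma (version 3.58.1, R 4.3.3; lmFit, eBayes, percent scale, two-sided, Benjamini-Hochberg over all regions or CpGs, threshold 0.05), checked on simulated data. Read numbers behind fractions were not used, so no counting intervals are given. Genes are the nearest genes of the deposited tables; exons follow the GENCODE annotation of the same build. Named other regions were the 5 highest and 5 lowest limma statistics among regions of at least 5 CpGs, and the pLN housing DMRs whose mLN groups did not overlap. The members, gene lists and tests were chosen with earlier results of these data known.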

Additional observations from a re-analysis of the deposited data

Results flagged for a closer look

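At 1700110I01Rik, called by the authors between SPF and GF pLN and between the nodes of GF mice, every SPF library lay above every GF library in mLN, by 19.5 points between the means, and every SPF library lay below every GF library in pLN, by 23.3 points (-23.3). The region was selected on the pLN contrast and named for its rank in mLN, and the difference between the nodes was not tested. At the Isl1 region every SPF library lay below every GF library in mLN (-22.5 points) and above in pLN (8.04 points); this difference was not tested either, and the region had been called between mLN and pLN of GF mice.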

How the results depend on the processing

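Read depth was not part of the values used, so what it limits was not tested. On a logit scale limma called 1 of 1602 mLN regions, Dnm1, with adjusted p 0.0354 there and 0.549 on the percent scale. Its 3 CpGs had 13.5%, 12% and 23.3% in the SPF and 0% in both GF mLN libraries. This region had been called between mLN and pLN of GF mice, a comparison that used the same GF mLN libraries. Its p-values carry that choice. Among settings that kept more than 1 library per group, every other mLN alternative called 0, and smallest adjusted p in limma ranged from 0.113 to 0.654. Leaving out 1 library at a time gave 75 to 131 mLN regions at an unadjusted p under 0.05. Replicate numbers did not pair the libraries (correlations of deviations from group means from -0.067 to 0.067); with the replicate block 0 regions were called in mLN and in pLN, with 135 and 93 at an unadjusted p under 0.05, and 1251 CpGs. Of the 17 DMRs, 3 had an unadjusted p under 0.05 in pLN with the block, and 0 to 3 without 1 pLN library (3 without GF replicate 1, 2 without GF replicate 2, 1 without SPF replicate 2 or 3).

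The mean difference of the 17 DMRs in the listed direction, 13.9 points, was 12 to 16 points without 1 library, and 21.4 points in the 6 DMRs with at least 5 CpGs by the authors' count, of which 5 had the listed sign and 5 groups that stood apart. Of the 7 with a smoothed difference of at least 0.27, 5 had the listed sign and 4 stood apart. With the median over CpGs 8 of the 17 reached 25 points in place of 4. Without 1 library 3 to 5 reached it, 12 or 13 had the listed sign and 10 to 12 stood apart. The last count could not fall below 10, since groups that stand apart stay so with 1 library fewer. At a DMR whose groups stand apart, the sign cannot change when 1 library is left out, so those settings say nothing on its stability. With the median over CpGs none of these DMRs changed sign.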
